A study of Mus musculus with 6 samples.

Results

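Translation initiation and elongation factors are the proteins that load the ribosome with initiator tRNA and mRNA, find the start codon, bring in each amino acid and move the ribosome along. The genes described here are the rows of the deposited table whose symbol starts with Eif or Eef followed by a digit, together with Tpt1 and Pabpc1. The rule found 66 genes among the 24354 of the table, which fall into 13 groups by factor complex. The values were measured by RNA sequencing in 3 libraries homozygous for Pik3ca H1047R, an activating variant of p110α, a catalytic subunit of PI3K (phosphoinositide 3-kinase), and in 3 wild-type (WT) libraries. Both groups carry the strain label C57BL6, were taken at E18.5, shortly before birth, and were sorted from mouse epidermis as basal cells with high α6 integrin, a laminin receptor subunit. No label tells how the variant was introduced and in which cells, or whether a library is 1 embryo or a pool. The p-values therefore cover the spread among these 6 libraries and no more, and that spread may be technical.

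PI3K signals through AKT to the kinase complex mTORC1, which promotes cap-dependent initiation. It does so by phosphorylating the 4E-BPs, proteins that otherwise hold the cap-binding factor eIF4E, and by acting through the S6 kinases on eIF4B, on the eIF4A inhibitor PDCD4 and on the eEF2 kinase. Many mRNAs of ribosomal proteins and elongation factors start with a terminal oligopyrimidine (TOP) tract, a C followed by pyrimidines, and the translation and stability of these mRNAs depend on mTORC1 and the RNA-binding protein LARP1. A separate brake is phosphorylation of eIF2 by kinases that sense stress, which blocks its recycling by the exchange factor eIF2B.

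Values are deposited FPKM, which count sequenced fragments relative to transcript length and to a total for the library. FPKM summed to between 538627 and 651769 per mutant library and to between 656761 and 767148 per WT library. The number of reads is unknown, and for these genes the median halfwidth of the authors' interval was 35.7% to 37.6% of the value. Mutant library 3 stood apart in that rows under 200 bases took 8.26% of its FPKM, against 0.659% to 2.60% in the other libraries. In 20 of the 23 members that were lower in mutant, mutant library 3 was the highest mutant library and WT library 3 the lowest WT library. Pik3ca itself was at 7.15, 6.81 and 5.98 FPKM in the mutant libraries and at 8.70, 8.92 and 9.50 FPKM in the WT libraries, which says nothing of the point mutation. The 6 basal keratinocyte markers summed to 20155 to 23211 FPKM in mutant and 23047 to 23638 FPKM in WT libraries, a sum carried by Krt5 and Krt14. The sort marker Itga6 was nevertheless lower, at 121, 125 and 122 FPKM in mutant and 157, 161 and 172 FPKM in WT libraries (log2 fold change -0.41, limma adjusted p = 0.00146), as were the adhesion genes Itgb4 (-0.75) and Col17a1 (-0.36), while Krt5, Krt14 and Trp63 did not pass. The suprabasal keratins Krt1 and Krt10 together were at 10430 to 13112 FPKM in mutant and 2739 to 3475 FPKM in WT libraries. The 6 dermal fibroblast markers summed to 303 to 337 FPKM in mutant and 369 to 501 FPKM in WT libraries. That sum was carried mostly by Dcn, at 197 to 233 FPKM in mutant and 235 to 295 FPKM in WT libraries. Lum was also lower with groups apart, while Col1a1, Col1a2, Col3a1 and Pdgfra overlapped between the groups. The 5 of 6 erythroid markers in the table summed to 82.8 to 148 FPKM in mutant and 222 to 288 FPKM in WT libraries. Markers of melanocytes, endothelium, immune cells, skeletal muscle and Merkel cells summed to at most 12.6 FPKM per list in mutant and 18.48 FPKM in WT libraries, and Cd207, the Langerhans cell marker, was at 0 in all 6. The part of these shifts in the results below was not tested. Fewer cells of a type and less RNA per cell cannot be told apart in such bulk libraries.

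As deposited, mutant libraries held less mRNA of 23 members. These included the tested elongation factor genes of the eEF1 and eEF2 groups, a subset of eIF3 subunits, Eif5, Tpt1, Pabpc1, Eif1, Eif2s2 and Eif4b. They held more mRNA of 7 members, Eef2k, Eif4ebp2, Eif1ad, Eif2ak1, Eif5b, Eif2b4 and Eif4g1. Of the 66 genes, 63 had a mean of at least 1 FPKM and were tested, with limma on log2(FPKM + 1) over the 11385 genes that reached that mean. At a Benjamini-Hochberg adjusted p under 0.05, 23 were lower in mutant libraries (36.5%, against 22.8% of all tested genes) and 7 were higher (11.1%, against 23.2%). The 30 called members are close in share to the 46% of all tested genes that were called in either direction. Mutant values lay below every WT value in 25 of the 63 (26.9% of all tested genes did) and above in 13 (29.1%), while 56% of all tested genes were apart in either direction. Their median log2 fold change was -0.12, against 0.01 over all tested genes. These directions are those of the values as deposited. With each library scaled to the same total FPKM, the median tested gene was at 0.30, against 0.01 as deposited, and 12 of the 63 were then lower and 25 higher, against 7.4% and 47.2% of all tested genes. After quantile normalization 15 were lower and 16 higher, against 21.2% and 26.5% of all tested genes, so neither share stood out from the rest of the table. Without both libraries numbered 3, 33 were lower and 8 higher, against 26% and 24.5% of all tested genes. Several members that did not pass as deposited passed as higher with equal totals, among them Eif2s1 (log2 fold change 0.47), Eif4e (0.38), Eif1ax (0.39) and Eif5a (0.29). Relative to the median gene, the median of the 63 was -0.13 as deposited, -0.10 with equal totals and -0.24 without both libraries numbered 3, but -0.00020 after quantile normalization. Their position below the median gene thus depends on the scaling.

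**Figure D1:**
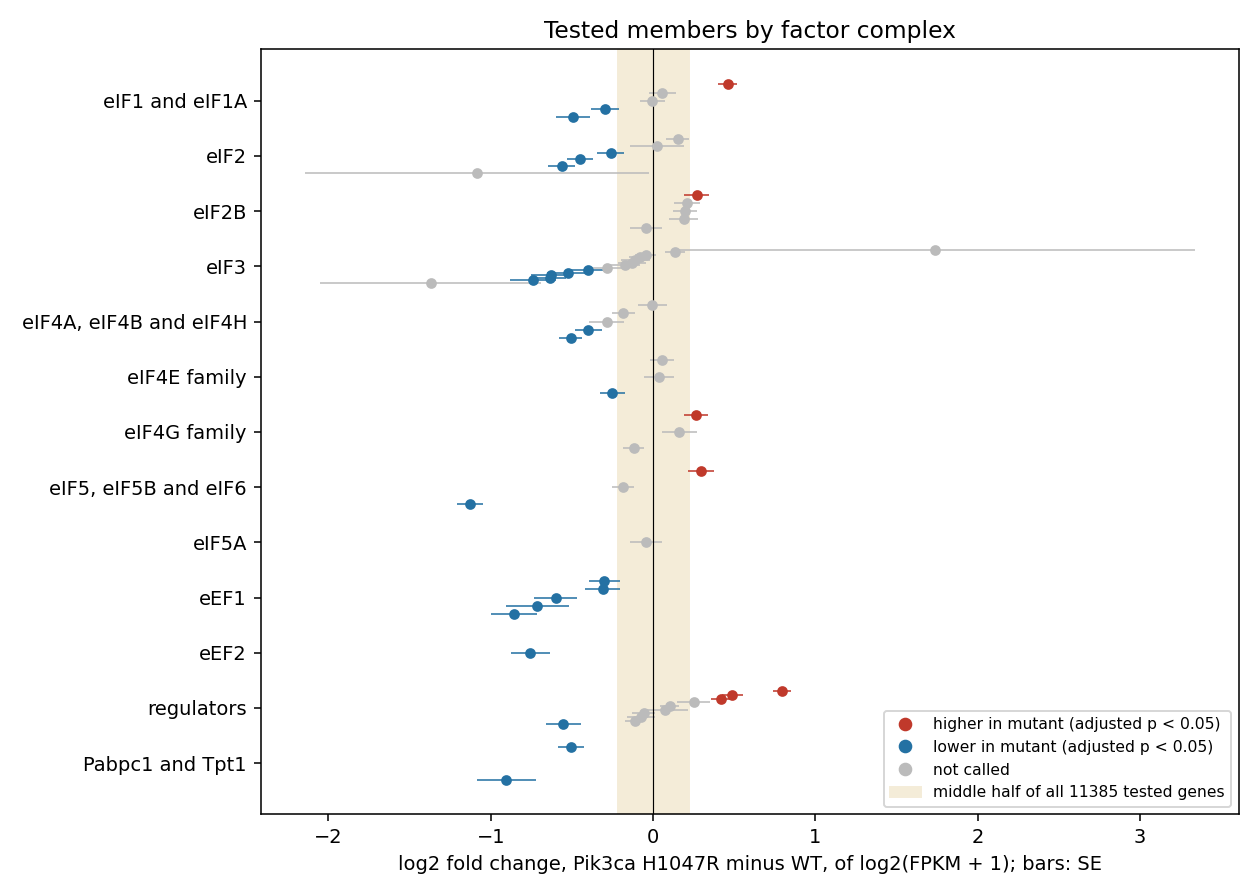
Log2 fold change (Pik3ca H1047R minus WT, on the log2(FPKM + 1) scale, bars are SE) of the 63 tested genes, by factor complex. The eEF1, eEF2 and Tpt1 points lie left of 0, eIF2B lies mostly right of it, and the eIF3 and regulator rows hold members on both sides; the wide bars belong to Eif2s3y, Eif3j1 and Eif3j2.

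All 6 tested eEF1 and eEF2 genes fell, and Eef1a1, Eef2 and Eef1g were, with Tpt1, the 4 most abundant members. Of all tested genes, 22.8% were lower. At 500 FPKM or more, where Eef1a1, Eef2, Eef1g and Eef1b2 lay, 67.9% of all tested genes were lower. Eef1a1 (chromosome 9, 78478454 to 78481724, minus strand), which encodes the factor that delivers aminoacyl-tRNA to the ribosome, was at 5702, 5999 and 7319 FPKM in mutant libraries and at 11322, 10800 and 9022 FPKM in WT libraries. Every mutant value was under every WT value, and the closest were those of the libraries numbered 3. Its mean was 6340 ± 861 FPKM in mutant and 10381 ± 1206 FPKM in WT libraries (SD, n = 3 each), a ratio of 0.611 (log2 fold change -0.71, SE 0.19, limma adjusted p = 0.0182). That call ended without mutant library 1 or 2 or without WT library 1 or 2 (adjusted p up to 0.109). It also ended with no filter on low values (adjusted p = 0.213) and was kept with equal totals (log2 fold change -0.38, limma adjusted p = 0.00084).

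The exchange factors that recharge eEF1A with GTP fell with it. Eef1b2 was at 383, 395 and 502 FPKM in mutant libraries and at 866, 797 and 654 FPKM in WT libraries (log2 fold change -0.85, SE 0.14, limma adjusted p = 0.00215). Eef1g, a further subunit, was at 869, 900 and 1076 FPKM in mutant libraries and at 1576, 1494 and 1248 FPKM in WT libraries (-0.60, limma adjusted p = 0.0076), a call that ended after quantile normalization (-0.01). In both the groups were apart, and Eef1b2 was also lower relative to Eef1a1 of the same library, at 6.72, 6.59 and 6.86 per 100 Eef1a1 in mutant and 7.65, 7.38 and 7.25 in WT libraries. Eef1d (ratio of means 0.811) and Eef1e1 (0.797), a scaffold protein of the aminoacyl-tRNA synthetase complex, fell less, and their groups overlapped. The calls of Eef1d and Eef1e1 ended without any 1 of 4 libraries (adjusted p up to 0.114 and up to 0.142), and with equal totals their log2 fold changes were 0.03 and 0.01. Eef1a2, the muscle and neuron form of eEF1A, was at 0.030 FPKM in WT library 2 and at 0 in the other 5.

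Eef2 (chromosome 10, 81176631 to 81182509, plus strand), which encodes the translocase, and the kinase that inhibits it moved in opposite directions. Eef2 was at 1171, 1164 and 1372 FPKM in mutant libraries and at 2238, 2128 and 1893 FPKM in WT libraries. Its mean ratio was 0.592 (log2 fold change -0.76, SE 0.12, limma adjusted p = 0.0019). Eef2k (chromosome 7, 120842831 to 120907219, plus strand) was at 29.7, 27.7 and 27.6 FPKM in mutant libraries and at 15.6, 16.2 and 16.0 FPKM in WT libraries, the largest called increase among the members (1.78-fold, log2 fold change 0.79, SE 0.06, limma adjusted p = 3.53e-05). Neither pair of groups overlapped. Eef2 no longer passed after quantile normalization (log2 fold change -0.08), and Eef2k passed under every alternative tried. The ratio of the pair stays the same when a library is multiplied by 1 factor. As deposited, there were 2.54, 2.38 and 2.01 FPKM of Eef2k per 100 FPKM of Eef2 in mutant libraries and 0.697, 0.762 and 0.844 in WT libraries. Quantile normalization can change such a ratio: the log2 fold change was then 0.81 for Eef2k and -0.08 for Eef2. Exons of Eef2k overlap those of Gm15774 on the opposite strand, as do those of 17 members with some gene there, and no label tells whether the libraries keep the strand. Eef2kmt, an eEF2 lysine methyltransferase gene, was at 10.5 ± 0.255 FPKM in mutant and 10.98 ± 0.942 FPKM in WT libraries (SD, n = 3 each) and did not pass (limma adjusted p = 0.528).

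Tpt1 (chromosome 14, 75845256 to 75848303, plus strand) encodes the translationally controlled tumour protein TCTP, and its mRNA is a long known TOP mRNA. It was at 3372, 3631 and 4370 FPKM in mutant libraries and at 7927, 7362 and 6014 FPKM in WT libraries. The groups were apart, the mean ratio was 0.534 and the log2 fold change was -0.90 (SE 0.18, limma adjusted p = 0.00494), a call lost with no filter on low values (limma adjusted p = 0.06). Pabpc1, the cytoplasmic poly(A)-binding protein that joins the mRNA tail to eIF4G, was at 355, 334 and 372 FPKM in mutant libraries and at 512, 518 and 476 FPKM in WT libraries (-0.50, SE 0.08, limma adjusted p = 0.00171). With equal totals its log2 fold change was -0.17 and the call ended (limma adjusted p = 0.0536). Its paralog Pabpc4 did not pass (log2 fold change -0.17, limma adjusted p = 0.0752) and was present at 4.34, 5.19 and 4.75 FPKM per 100 of Pabpc1 in mutant and 3.83, 3.70 and 3.83 in WT libraries.

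**Figure D2:**
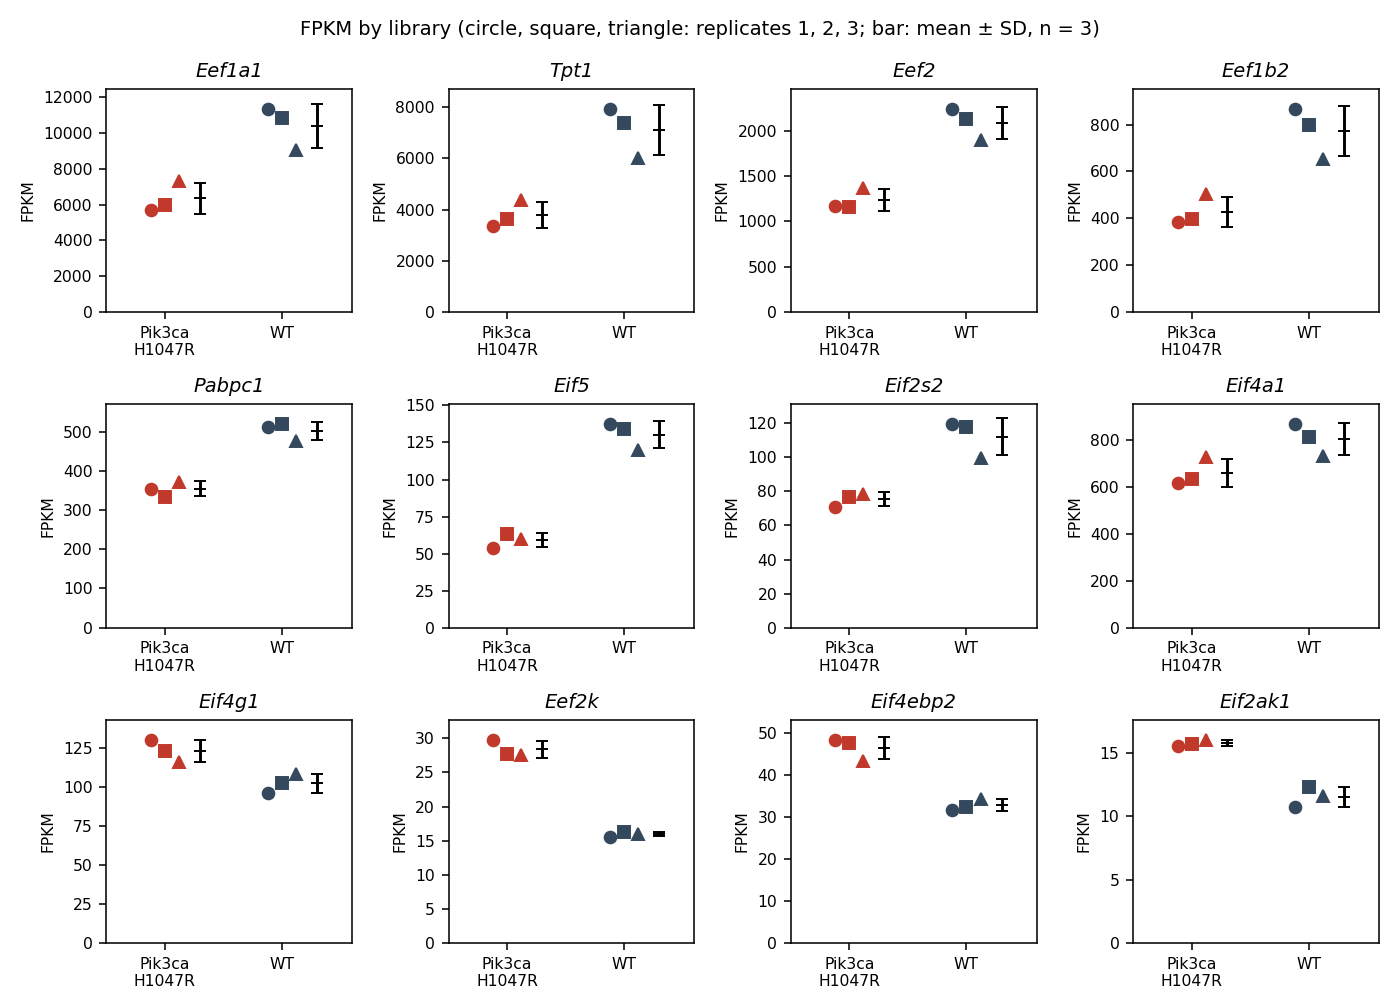
FPKM of 12 members in each library, with linear axes that start at 0 (mutant left, WT right, mean ± SD beside the points, n = 3 each). The groups are apart in every panel, also in that of Eif4a1, which did not pass the test; in Eef1a1, Tpt1, Eef2 and Eef1b2 the triangles, libraries numbered 3, lie nearest to the other group.

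The change followed the level, in these genes as across the table. Across the 63, Spearman's rho between log2 fold change and mean FPKM was -0.58, against -0.16 over all 11385 tested genes. These are descriptions across genes, which share the 6 libraries and are not replicates. Of the 8 members at 500 FPKM or more, 6 were lower and 0 higher, with a median of -0.66. All 168 tested genes at that level had a median of -0.74, and 67.9% of them were lower, so the fall of the abundant factors was shared with other abundant genes. Of the 14 members under 20 FPKM, 1 was lower and 4 were higher, with a median of 0.18. Of the 7478 tested genes at that level, 18.8% were lower and 25.9% higher, with a median of 0.05. The 66 genes made up 3.26%, 3.41% and 3.32% of a library's summed FPKM in mutant libraries and 4.31%, 4.01% and 3.98% in WT libraries. Without the 4 most abundant, Eef1a1, Tpt1, Eef2 and Eef1g, the share was 1.15% to 1.23% in mutant and 1.17% to 1.24% in WT libraries, and the groups overlapped.

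**Figure D3:**
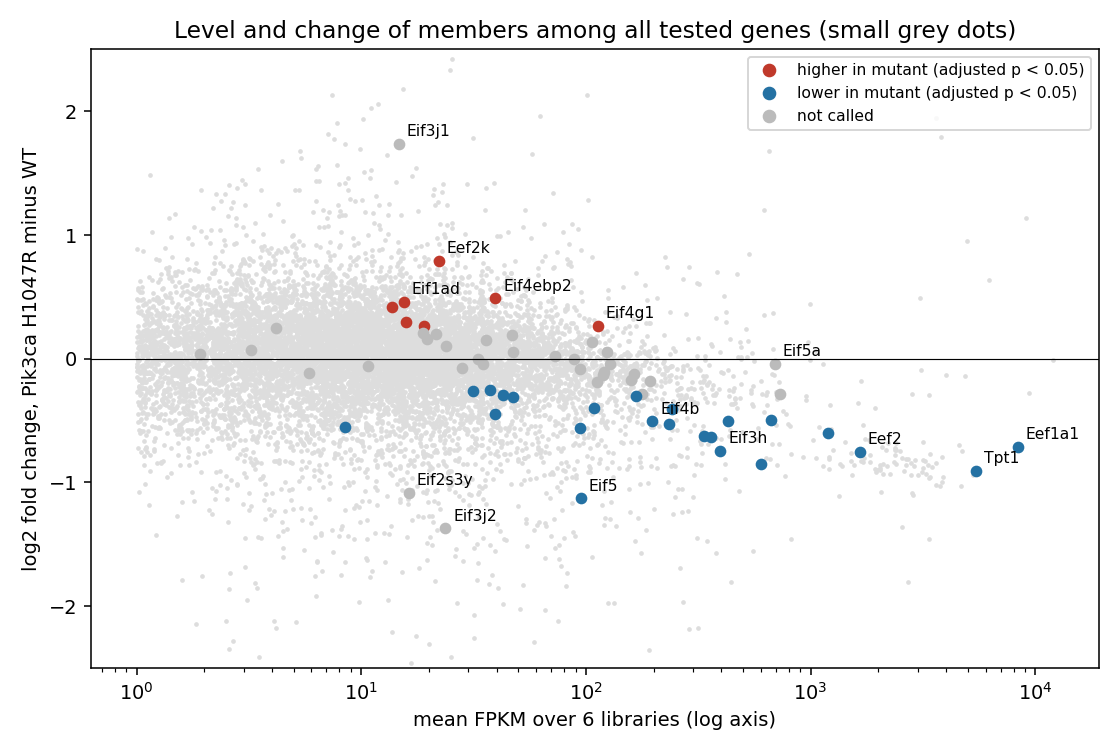
Mean FPKM over the 6 libraries (log axis) against log2 fold change, Pik3ca H1047R minus WT, with members as large points and all tested genes as small grey dots; 42 genes, none of them members, lie outside the plotted range. The most abundant members, Eef1a1 and Tpt1, lie within the band of other abundant genes that were lower in mutant libraries, whereas Eif5 lies low at a moderate level and Eif5a near 0 at a high level.

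The members known from the literature to carry TOP mRNAs were Eef1a1, Eef1b2, Eef1d, Eef1g, Eef2, Eif3e, Eif3f, Eif3h, Eif4b, Pabpc1 and Tpt1. All 11 were tested and all 11 were lower, with log2 fold changes between -0.90 and -0.30 and a median of -0.64. Of all tested genes, 22.8% were lower. The 11 had means between 168 and 8361 FPKM. Of all tested genes at 100 to 200, 200 to 500, and 500 FPKM or more, 36.7%, 46.2% and 67.9% were lower. Whether the 11 fell beyond what their level goes with was not tested. Of the 52 other tested members, 12 were lower and 7 higher, with a median of -0.05. The list was drawn up with earlier results of these data known. With equal totals, Eef1d was at 0.03, and Eif4b (-0.18) and Pabpc1 (-0.17) no longer passed.

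To show the sequences at issue, start regions of 3 TOP-listed members and 3 others are printed from RefSeq on GRCm38.p6, each 30 bases on the gene's own strand: 10 before the annotated start and 20 from it. Capitals mark a C within 5 bases of the annotated start that is followed by at least 4 pyrimidines, with the whole run.
Eef1a1, chr9:78481705-78481734, minus strand: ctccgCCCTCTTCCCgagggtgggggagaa
Eif3f, chr7:108934405-108934434, plus strand: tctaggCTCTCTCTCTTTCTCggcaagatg
Tpt1, chr14:75845246-75845275, plus strand: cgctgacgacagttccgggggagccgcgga
Eif4g1, chr16:20672717-20672746, plus strand: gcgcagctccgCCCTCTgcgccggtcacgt
Eef2k, chr7:120842821-120842850, plus strand: cccgtgcgtcagtcccgccccagccctggt
Eif5, chr12:111538091-111538120, plus strand: cgacgtgcatgcgagccaatgacaagagaa
Of the 66 genes, 51 had a start region in the RefSeq table and 49 of these were tested. Such a run, searched on the gene's strand alone, was found at 14 of the 49, or 28.6%, against 18.3% of all 32851 start regions and 23.8% of the 8656 tested genes with one. It was found at 2 of the 6 TOP-listed members with a region, Eef1a1 and Eif3f. The median log2 fold change was 0.06 for the 14 with a run and -0.11 for the 35 without, so annotated starts with a run did not mark the members that fell. Mapped start sites can lie bases away from the annotated start, and the absence of a run says only that these letters were not in this window.

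The eIF3 complex, the large scaffold that holds the small ribosomal subunit ready for mRNA, split by subunit. Of its 14 genes, 5 were lower, 0 were higher and 9 did not pass, against 22.8% lower and 23.2% higher of all tested genes. The 5 were also the most abundant, with means of 234 to 396 FPKM, and the other 9 had means of at most 177 FPKM. Of all tested genes at 200 to 500 FPKM, 46.2% were lower. Whether the split goes beyond level was not tested. Eif3h was at 266, 280 and 341 FPKM in mutant libraries and at 559, 524 and 408 FPKM in WT libraries (log2 fold change -0.74, SE 0.14, limma adjusted p = 0.00395). Eif3f was at 262, 265 and 318 FPKM in mutant libraries and at 462, 448 and 403 FPKM in WT libraries (-0.64, limma adjusted p = 0.0017). These 2 encode the MPN-domain subunits of the complex, and their groups were apart. Eif3k (ratio of means 0.645) and Eif3e (0.693) fell as well with groups apart, and Eif3i (0.754) fell with groups that overlapped. After quantile normalization Eif3e no longer passed (-0.19). The call of Eif3i ended without any 1 of 4 libraries (adjusted p up to 0.121) and with equal totals.

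The largest subunits were near their WT level. Eif3a was at 94.1, 94.9 and 84.4 FPKM in mutant libraries and at 92.8, 99.0 and 97.4 FPKM in WT libraries (limma adjusted p = 0.354). Eif3c was at 126 ± 6.17 FPKM in mutant and 130 ± 4.91 FPKM in WT libraries (SD, n = 3 each), and Eif3b at 111 ± 5.89 and 101 ± 1.88 FPKM. With equal totals Eif3c and Eif3b passed as higher (log2 fold changes of 0.28 and 0.46), whereas Eif3a did not (0.25). The median tested gene was then at 0.30, and 47.2% of all tested genes passed as higher. For Eif3b the mutant values as deposited lay above the WT values without passing (limma adjusted p = 0.117). Relative to Eif3a of the same library, Eif3h was at 2.83, 2.95 and 4.05 in mutant and 6.03, 5.29 and 4.19 in WT libraries. Eif3f and Eif3k were also below WT in every library by this measure. For Eif3k the groups barely parted, at 3.548 in mutant library 3 and 3.575 in WT library 3. By the same measure Eif3e, Eif3i, Eif3m, Eif3l, Eif3d, Eif3g and Eif3c overlapped. For Eif3h, Eif3f and Eif3k, mutant library 3 and WT library 3 were the closest pair between the groups.

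**Figure D4:**
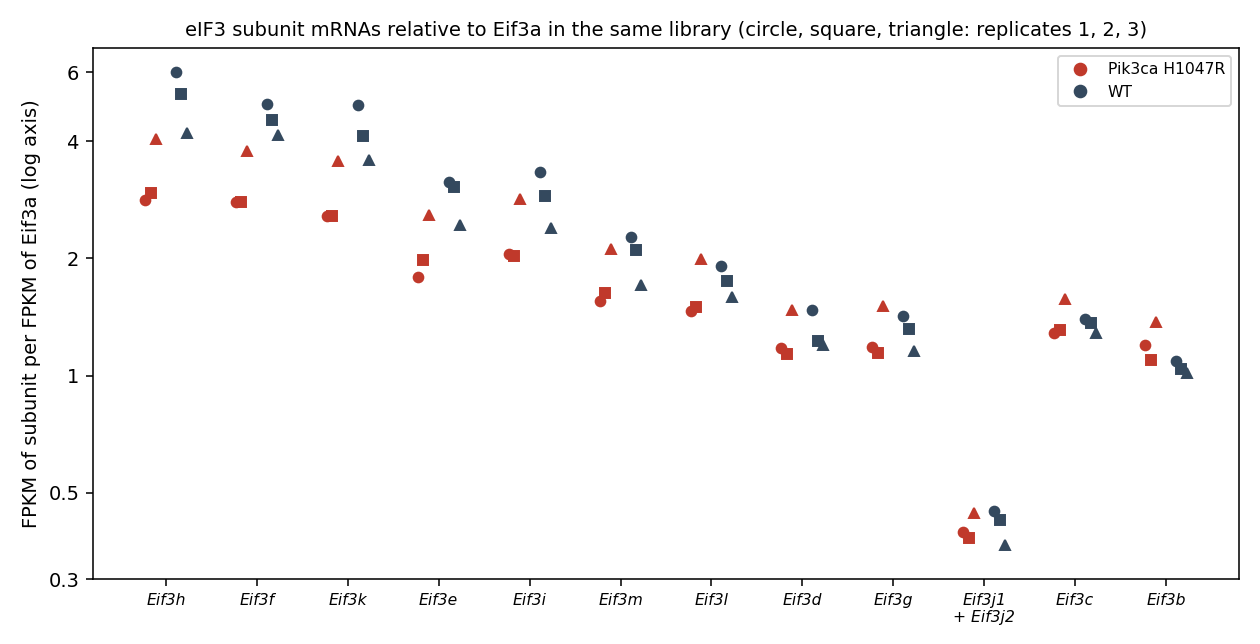
FPKM of each eIF3 subunit per FPKM of Eif3a in the same library (log axis), ordered by the ratio of group means; for each subunit mutant libraries stand left and WT libraries right. Eif3h, Eif3f and Eif3k are apart and lower in mutant libraries, Eif3k by very little, and Eif3b is apart and higher. In the strongly shifted subunits replicate 3 (triangle) of both groups lies between the others.

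Eif3j1 and Eif3j2, which encode near-identical forms of the loosely bound j subunit, cannot be read singly. The table places both at 1 locus on chromosome 2, and reads were assigned to 1 copy or the other by library: Eif3j1 was at 0.067, 29.5 and 33.2 FPKM in mutant and at 0.067, 25.5 and 0.067 FPKM in WT libraries, and Eif3j2 was high where Eif3j1 was near 0. Their sum was 37.3, 36.3 and 37.5 FPKM in mutant and 41.8, 42.0 and 35.7 FPKM in WT libraries, groups that overlap (two-sided exact permutation test p = 0.4).

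Among the subunits of eIF2, which carries the initiator tRNA, only the β subunit passed, as lower. No gene of the exchange factor eIF2B was lower. Eif2s2, the β subunit, was at 71.0, 76.7 and 78.6 FPKM in mutant libraries and at 119, 118 and 99.5 FPKM in WT libraries (log2 fold change -0.56, SE 0.09, limma adjusted p = 0.00138). The α subunit Eif2s1, the one that stress kinases phosphorylate, was at 36.2, 37.1 and 40.2 FPKM in mutant libraries and at 36.2, 34.6 and 31.3 FPKM in WT libraries and did not pass (limma adjusted p = 0.124). So the α and β subunits did not move together. Of the 5 eIF2B genes, Eif2b4 rose (1.22-fold, limma adjusted p = 0.0231), and Eif2b1, Eif2b3, Eif2b5 and Eif2b2 did not pass, with log2 fold changes of 0.20, 0.21, 0.19 and -0.04. The call of Eif2b4 ended without mutant library 2 or 3 or WT library 3 (adjusted p up to 0.0615). With equal totals, all 5 passed as higher, as did 47.2% of all tested genes. The median tested gene was then at 0.30, Eif2b2 at 0.28 and the others between 0.51 and 0.58. Per 100 FPKM of Eif2s2, the catalytic subunit Eif2b5 was at 65.6, 63.8 and 69.5 FPKM in mutant and 39.0, 38.9 and 39.4 FPKM in WT libraries, which are far apart. That pair was chosen after its values were seen, as were the ratios to Eif3a and of Eif4ebp2 to Eif4e. Eif2s2 was the eIF2 subunit that fell and Eif2b5 itself did not pass, so the ratio does not stand for eIF2 as a whole.

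The γ subunit of eIF2 is encoded on both sex chromosomes. Eif2s3y was at 22.9, 22.8 and 0.093 FPKM in mutant and at 13.9, 16.8 and 21.4 FPKM in WT libraries. Eif2s3x was at 60.0, 65.6 and 96.9 FPKM in mutant and at 75.4, 75.6 and 63.7 FPKM in WT libraries, so the library with almost no Eif2s3y had the highest Eif2s3x. The sum of the pair was 89.4 ± 7.11 FPKM in mutant and 88.9 ± 3.60 FPKM in WT libraries (SD, n = 3 each; two-sided exact permutation test p = 1). The noncoding RNA Xist, made from an inactive X chromosome, was at 0.733, 0.054 and 71.1 FPKM in mutant and at 30.5, 24.2 and 0.530 FPKM in WT libraries. The Y-linked Ddx3y was at 19.8, 22.7 and 0.209 FPKM in mutant and at 15.8, 17.6 and 20.9 FPKM in WT libraries. So the libraries differed in both within a group. WT libraries 1 and 2 held both transcripts, mutant library 3 held Xist with almost no Ddx3y, and the remaining libraries held Ddx3y with almost no Xist. Two-sided tests on 3 against 3 cannot give a permutation p under 0.1. Eif2a and Eif2d, which can bring initiator tRNA to the ribosome without eIF2, fell (ratios of means 0.727 and 0.831). The call of Eif2d ended without any 1 of 4 libraries (adjusted p up to 0.113), and with equal totals neither passed (log2 fold changes of -0.13 and 0.06).

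Of the factors that set the accuracy of start codon choice, Eif1 fell and Eif5 fell more. Eif5 (chromosome 12, 111538101 to 111546753, plus strand), which makes eIF2 hydrolyse its GTP at the start codon, was at 54.1, 63.0 and 60.1 FPKM in mutant libraries and at 137, 134 and 120 FPKM in WT libraries. The groups were far apart and the ratio of means was 0.453, the lowest among called members (log2 fold change -1.13, SE 0.08, limma adjusted p = 3.71e-05). It was also lower with equal totals (-0.80, limma adjusted p = 0.000303). Eif1, which holds the scanning ribosome open until a start codon is found, was at 529, 527 and 612 FPKM in mutant libraries and at 844, 788 and 714 FPKM in WT libraries (-0.49, limma adjusted p = 0.00616), a call that ended after quantile normalization (-0.14). Its paralog Eif1b did not pass, at 33.2 ± 3.26 FPKM in mutant and 33.2 ± 1.24 FPKM in WT libraries (SD, n = 3 each; limma adjusted p = 0.966).

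The partner of eIF1, eIF1A, is encoded by Eif1ax and Eif1a. Eif1ax was at 121, 122 and 137 FPKM in mutant and at 125, 129 and 111 FPKM in WT libraries and did not pass (limma adjusted p = 0.595). Eif1a fell (ratio 0.808, limma adjusted p = 0.0229), a call that ended without any 1 of 4 libraries (adjusted p up to 0.0804) and with equal totals (log2 fold change 0.03). Eif1ad, named for its eIF1A domain, rose, at 17.9, 17.4 and 18.9 FPKM in mutant and 12.7, 12.7 and 13.2 FPKM in WT libraries (0.46, SE 0.06, limma adjusted p = 0.000567), though its exons overlap those of Banf1 on the opposite strand. Eif5b, the GTPase that joins the ribosomal subunits, rose 1.24-fold (limma adjusted p = 0.0184), a call that ended without any 1 of 4 libraries (adjusted p up to 0.0679). Eif6, which keeps free large subunits from joining, was at 104 ± 6.19 FPKM in mutant and 119 ± 4.61 FPKM in WT libraries (SD, n = 3 each) and missed the threshold with groups apart (limma adjusted p = 0.0532). Eif5a, which helps the ribosome through difficult peptide bonds, was at 653, 650 and 743 FPKM in mutant and at 748, 704 and 655 FPKM in WT libraries, groups that overlap (limma adjusted p = 0.735). Eif5a2 lay just under the filter, at 1.01, 1.09 and 1.11 FPKM in mutant and 0.690, 0.841 and 0.886 FPKM in WT libraries.

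The cap-binding complex eIF4F joins the cap-binding protein eIF4E, the scaffold eIF4G and the helicase eIF4A. Eif4e was at 46.6, 48.8 and 49.8 FPKM in mutant and at 49.1, 48.8 and 42.1 FPKM in WT libraries and did not pass (limma adjusted p = 0.575). Eif4g1 (chromosome 16, 20672727 to 20692883, plus strand) was at 130, 123 and 116 FPKM in mutant libraries and at 96.4, 103 and 109 FPKM in WT libraries (log2 fold change 0.26, SE 0.07, limma adjusted p = 0.0188). The gap between the groups was small, and that call ended without any 1 of 4 libraries (adjusted p up to 0.0674). Eif4a1 was at 615, 632 and 727 FPKM in mutant and at 865, 810 and 731 FPKM in WT libraries and did not pass, with groups that barely parted (-0.29, limma adjusted p = 0.0587). Its paralog Eif4a2 fell, at 90.6, 103 and 87.5 FPKM in mutant and 129, 127 and 115 FPKM in WT libraries (-0.40, limma adjusted p = 0.0057), with the call lost with equal totals (-0.07). Per 100 Eif4a1, Eif4a2 was at 14.7, 16.4 and 12.03 FPKM in mutant and 14.9, 15.7 and 15.8 FPKM in WT libraries, which overlap. Exons of small nucleolar RNA genes on the same strand overlap those of Eif4a2 (Snora81 and Snord2), and so do Snora28 in Eif5 and Snord66 in Eif4g1. In all, 12 members had such a same-strand overlap with some gene.

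Cofactors and variants of these subunits differed from one another. Eif4b, which stimulates the helicase, was at 154, 163 and 171 FPKM in mutant and at 237, 238 and 220 FPKM in WT libraries (-0.51, SE 0.07, limma adjusted p = 0.000932). Eif4h, a related cofactor, did not pass with groups apart (-0.18, limma adjusted p = 0.0596), nor did Eif4a3, the helicase of the exon junction complex (limma adjusted p = 0.977). Eif4e2, a cap-binding protein that represses translation, fell slightly (ratio 0.838, limma adjusted p = 0.029), a call that ended without any 1 of 4 libraries (adjusted p up to 0.101) and turned to 0.07 with equal totals. Per 100 Eif4e it was at 67.9, 67.5 and 75.6 FPKM in mutant and 86.3, 84.0 and 91.7 FPKM in WT libraries, groups that do not overlap. Multiplying a library by 1 factor leaves this ratio unchanged. Eif4g2 (DAP5), a scaffold without the eIF4E-binding site, did not pass (-0.12, limma adjusted p = 0.166), but per 100 Eif4g1 it was at 115, 129 and 138 FPKM in mutant and 181, 169 and 150 FPKM in WT libraries. Eif4g3 (limma adjusted p = 0.259) did not pass, nor did Eif4e3, the tested member nearest the filter, at 2.15, 1.89 and 1.84 FPKM in mutant and 2.06, 1.91 and 1.69 FPKM in WT libraries (limma adjusted p = 0.777), and Eif4e1b was at 0.028 FPKM in mutant library 1 and at 0 in the other 5.

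The 3 4E-BP genes, which encode the inhibitors that mTORC1 switches off, each behaved differently. Eif4ebp2 (chromosome 10, 61432497 to 61452669, minus strand) rose, at 48.3, 47.5 and 43.3 FPKM in mutant libraries and 31.5, 32.4 and 34.4 FPKM in WT libraries (1.42-fold, log2 fold change 0.49, SE 0.07, limma adjusted p = 0.000773). Eif4ebp1 was at 25.7, 26.4 and 29.3 FPKM in mutant and at 32.3, 27.5 and 26.4 FPKM in WT libraries and did not pass (limma adjusted p = 0.509). Eif4ebp3, the least abundant, fell, at 7.01, 7.46 and 5.57 FPKM in mutant and 9.18, 11.1 and 10.5 FPKM in WT libraries (-0.55, limma adjusted p = 0.00456), a call lost with equal totals (-0.26). Per 100 FPKM of Eif4e, Eif4ebp2 was at 104, 97.4 and 86.9 FPKM in mutant and 64.2, 66.4 and 81.5 FPKM in WT libraries, and the groups were apart by little. Eif4ebp1 per 100 Eif4e was at 56.1 ± 2.49 FPKM in mutant and 61.6 ± 4.73 FPKM in WT libraries (SD, n = 3 each), with overlap. Eif4enif1, which binds eIF4E and takes it to the nucleus and to P-bodies, was above WT in each mutant library without passing (log2 fold change 0.10, limma adjusted p = 0.184).

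**Figure D5:**
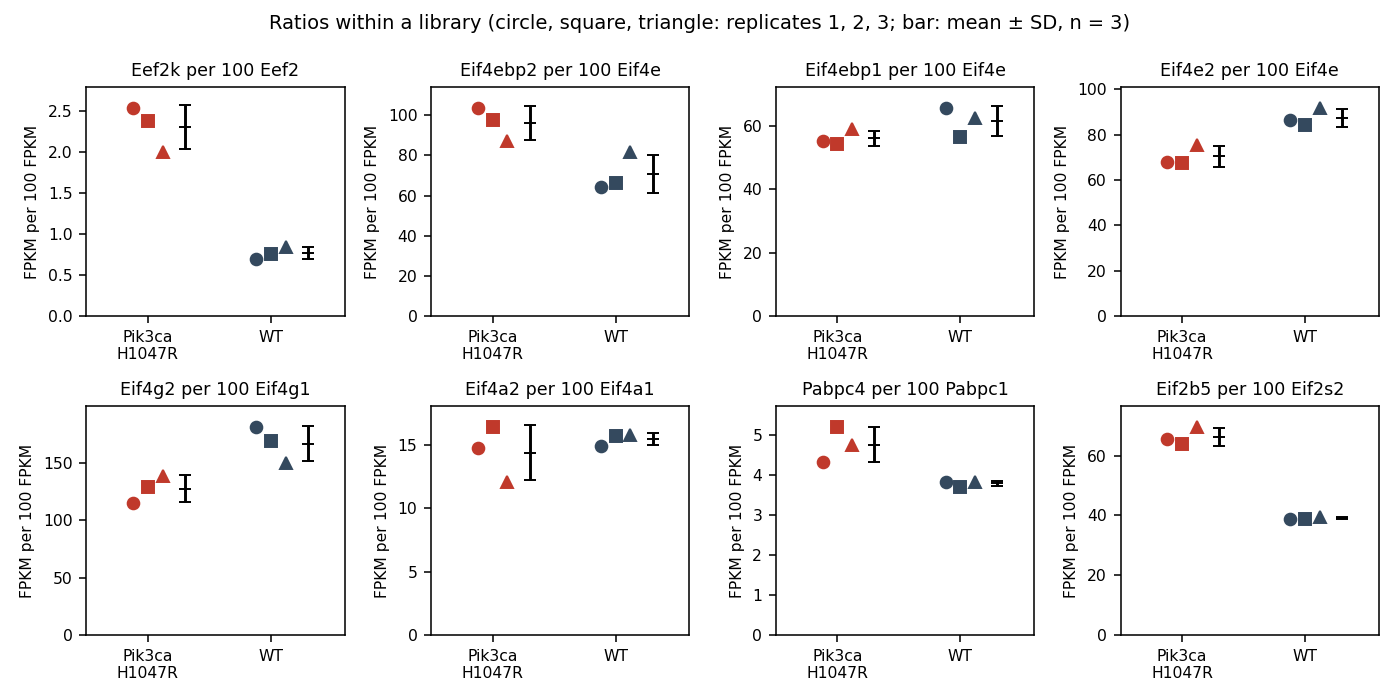
Ratios of 2 members, or of Pabpc4 to Pabpc1, within a library, as FPKM of the first per 100 FPKM of the second (mutant left, WT right, mean ± SD beside the points, n = 3 each; axes start at 0). Such ratios do not change when a library is rescaled: Eef2k to Eef2 and Eif2b5 to Eif2s2 are far apart between the groups, and Eif4ebp1 to Eif4e and Eif4a2 to Eif4a1 overlap. The ratios of Eif2b5 to Eif2s2 and of Eif4ebp2 to Eif4e were chosen after their values were seen, and Eif2s2 is the eIF2 subunit that fell.

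Among the 4 eIF2 kinases, 1 passed. Eif2ak1 (HRI, which senses heme deficiency and mitochondrial stress) rose, at 15.5, 15.7 and 16.0 FPKM in mutant libraries and 10.7, 12.3 and 11.6 FPKM in WT libraries (1.37-fold, log2 fold change 0.42, SE 0.06, limma adjusted p = 0.00145). Its exons overlap those of Aimp2 and Ankrd61 on the opposite strand, and Aimp2 itself did not pass (log2 fold change 0.12, limma adjusted p = 0.241). Eif2ak3 (PERK, the endoplasmic reticulum stress kinase) was at 5.31, 4.27 and 4.29 FPKM in mutant and 3.67, 3.33 and 4.17 FPKM in WT libraries, apart without passing (limma adjusted p = 0.0806). Eif2ak4 (GCN2, which senses uncharged tRNA) was at 5.45, 5.58 and 5.66 FPKM in mutant and 6.25, 5.999 and 6.05 FPKM in WT libraries (limma adjusted p = 0.16). Eif2ak2 (PKR, activated by double-stranded RNA) overlapped (limma adjusted p = 0.701).

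A list of genes around eIF2 phosphorylation held its phosphatase subunits, stress response genes and regulators of GCN2. Of its 10 tested genes, 6 were lower and 2 higher, with a median log2 fold change of -0.39; of all tested genes, 22.8% were lower and 23.2% higher, with a median of 0.01. The lists of other translation genes were, like the members, chosen with results known, and their counts are read against these shares. Atf4, the transcription factor of that response, was at 165, 166 and 190 FPKM in mutant and 345, 321 and 283 FPKM in WT libraries (-0.86, limma adjusted p = 0.000328). Ppp1r15a (GADD34), which directs the phosphatase to eIF2, was at 59.8, 60.1 and 65.2 FPKM in mutant and 125, 113 and 108 FPKM in WT libraries (-0.89, limma adjusted p = 7.37e-05). Ppp1r15b (CReP), its constitutive counterpart, fell too (-0.52, limma adjusted p = 0.00021). The 2 higher genes were Impact, an inhibitor of GCN2 activation (0.43), and Gcn1l1, its activator (0.23).

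In the list of mTORC1 and MNK branch genes, 4 of 12 were higher and 2 lower, with a median of 0.18, counts close to the 23.2% and 22.8% of all tested genes. Rheb, the GTPase that activates mTORC1, was at 59.6, 66.3 and 70.3 FPKM in mutant and 127, 122 and 102 FPKM in WT libraries (-0.83, limma adjusted p = 0.000429). Pdcd4, which inhibits the eIF4A helicase, was at 34.8, 35.5 and 31.6 FPKM in mutant and 20.9, 25.5 and 25.8 FPKM in WT libraries (0.49, limma adjusted p = 0.00362). The ribosomal protein gene Rps6 fell (-0.81), and Rps6kb1, Rps6kb2 and Mknk2, which encode kinases of ribosomal protein S6 and of eIF4E, rose (0.25, 0.54 and 0.26). Of 7 other scanning and initiation factors, 2 were higher and 2 lower: Dhx29, a helicase that helps the ribosome through structured leaders, was at 9.99, 10.5 and 9.61 FPKM in mutant and 5.20, 5.07 and 5.22 FPKM in WT libraries (0.84, limma adjusted p = 4.07e-05), and Denr, a reinitiation factor, rose (0.44). Gnb2l1, the ribosomal scaffold RACK1, fell (-0.87), as did Eefsec, the selenocysteine elongation factor (-0.25).

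The remaining lists of translation genes were small, apart from that of the tRNA synthetases. Of all tested genes, 23.2% were higher and 22.8% lower as deposited, and 47.2% and 7.4% with equal totals. Values of these lists with equal totals are not given. Of 3 tested termination and recycling factors, Gspt1 (0.28) and Abce1 (0.26) rose and Etf1 did not pass (-0.19). Of 22 cytosolic tRNA synthetase genes and partners, 8 were higher, 1, Qars (-0.35), was lower and 13 did not pass, with a median of 0.17. Wars was at 21.3, 19.99 and 21.4 FPKM in mutant and 14.8, 15.5 and 14.4 FPKM in WT libraries (0.46, limma adjusted p = 0.000601). Of 7 poly(A)-binding genes and partners, Larp1, which binds TOP mRNAs, rose (0.41, limma adjusted p = 0.0292) and Paip2, an inhibitor of PABP, fell (-0.52, limma adjusted p = 0.0045). The groups of Larp1 barely parted, at 31.0 FPKM in mutant library 3 and 30.6 FPKM in WT library 3. Of 6 genes for diphthamide, the modified histidine of eEF2, Dph7, Dph1 and Dph2 rose (0.41, 0.29 and 0.31). The 3 genes for the hypusine of eIF5A and its polyamine donor, Dhps, Dohh and Odc1, had log2 fold changes between -0.08 and -0.02 and none passed in limma, at an unadjusted p of 0.232, 0.806 and 0.555.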

How the data were processed

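The deposited FPKM values and the bounds of their intervals are per gene and library, per the file headers. The authors' FPKM came from TopHat and Cufflinks with build mm9, per the submitters' processing notes; no version, strand setting or library scaling is named there. Gene positions overlapped the same symbol's gene in GENCODE M21 (GRCm38) for 98.9% of 23323 symbols, so positions, with 1 added to each start, are read as GRCm38; Eif3j2 was the exception among the 66 genes.

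Testing covered genes whose mean reached 1 FPKM, with limma 3.58.1 in R 4.3.3 on log2(FPKM + 1), with a trended variance prior and Benjamini-Hochberg adjustment over all 11385. This scale understates changes of low genes. The procedure was also run on simulated data with independent noise and few changed genes. Such data do not hold the library scaling or the many called genes seen here. Figures used Python 3.11.15 and matplotlib 3.10.9. Members, lists and tests were chosen with earlier results of these data known. Named in full were up to 4 genes a group, called first by smallest p, then the highest mean, and preset genes; the others are given more briefly. The alternatives are given below.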

Additional observations from a re-analysis of the deposited data

How the results depend on the processing

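Of 20 alternatives, 2 were chosen after seeing the data: leaving out both libraries numbered 3 and removing a trend with transcript length. Of the 30 called members, 10 kept direction and call in all 20: Eef1b2, Eef2k, Eif1ad, Eif2ak1, Eif2s2, Eif3f, Eif3h, Eif3k, Eif4ebp2 and Eif5. Members called higher and lower numbered 25 and 12 with equal totals, 32 and 10 with equal totals and short RNA rows left out, 16 and 15 after quantile normalization, 4 and 15 at a threshold of 0.01, and 8 and 33 without both libraries numbered 3. With library weights 12 were called higher and 31 lower, against 3542 and 3546 of all tested genes. Leaving out 1 library gave 4 to 6 members higher and 16 to 28 lower. Across all tested genes it gave 1927 to 2550 higher and 1939 to 2591 lower. The median log2 fold change of the members was then between -0.18 and -0.11. That median was 0.20 with equal totals, 0.25 with short RNA rows also left out, 0.034 after quantile normalization and -0.24 without both libraries numbered 3. Across all tested genes, equal totals gave 5375 higher and 842 lower, leaving out short RNA rows 6600 and 846, and a threshold of 0.01 gave 3188 calls, 1554 higher and 1634 lower. The causes were not tested. The read number is unknown, so its limit on low members cannot be given. Within-library ratios were not recomputed with another row for a symbol, as no symbol has several.

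Same-numbered libraries deviated from their group means with correlations of 0.13, 0.12 and -0.01, so the numbers were not taken as pairs. With the replicate block 4 members were called higher and 13 lower, against 1889 and 1909 of all tested genes.

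Log2 fold changes changed sign as follows. With equal totals they were Eef1d 0.030, Eef1e1 0.013, Eef2kmt 0.24, Eif1a 0.028, Eif1b 0.32, Eif2ak4 0.17, Eif2b2 0.28, Eif2d 0.059, Eif3a 0.25, Eif3c 0.28, Eif3d 0.20, Eif3g 0.22, Eif3l 0.15, Eif3m 0.045, Eif4a1 0.045, Eif4a3 0.32, Eif4e2 0.071, Eif4ebp1 0.24, Eif4g2 0.21, Eif4h 0.15, Eif5a 0.29 and Eif6 0.14. With short RNA rows left out they were Eef1d 0.075, Eef1e1 0.057, Eef2kmt 0.29, Eif1a 0.072, Eif1b 0.36, Eif2ak4 0.21, Eif2b2 0.32, Eif2d 0.10, Eif3a 0.29, Eif3c 0.33, Eif3d 0.25, Eif3g 0.26, Eif3l 0.20, Eif3m 0.090, Eif4a1 0.090, Eif4a3 0.37, Eif4e2 0.12, Eif4ebp1 0.29, Eif4g2 0.25, Eif4h 0.19, Eif5a 0.33 and Eif6 0.19. After quantile normalization they were Eif1b 0.038, Eif2b2 0.0038, Eif3a 0.11, Eif3c 0.19, Eif3d 0.097, Eif3g 0.12, Eif3l 0.087, Eif4a1 0.079, Eif4a3 0.17, Eif4g2 0.14, Eif4h 0.13, Eif5a 0.35 and Eif6 0.045. With library weights they were Eif1ax -0.038, Eif2s3x -0.16 and Eif2s3y 0.019, and at equal median FPKM Eif2s3x -0.014. With the length trend removed they were Eif1b 0.012, Eif4a3 0.046 and Eif4e3 -0.0078. Without both libraries numbered 3 they were Eif1ax -0.063, Eif2s3x -0.26, Eif2s3y 0.55 and Eif4e -0.037. Leaving out 1 library gave ranges that cross 0: -0.11 to 0.0035 for Eef2kmt, -0.0067 to 0.098 for Eif1ax, -0.080 to 0.051 for Eif1b, -0.032 to 0.21 for Eif2ak2, -0.13 to 0.033 for Eif2b2, -0.18 to 0.16 for Eif2s3x, -1.83 to 0.40 for Eif2s3y, -0.10 to 0.056 for Eif4a3, -0.017 to 0.092 for Eif4e, -0.014 to 0.079 for Eif4e3, -0.13 to 0.0084 for Eif4ebp1 and -0.11 to 0.0030 for Eif5a.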
